A study of Mus musculus with 12 samples.

Results

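The 10 genes Reln, Calb1, Wfs1, Nr4a2, Neurod6, Lmo4, Crym, Fxyd6, Ntng1 and Lef1 mark layers and neuron types of the entorhinal cortex and neighbouring cortex. They were followed on two-colour Agilent arrays of laser-captured mouse entorhinal neurons. Every probe that carried 1 of these names in the scanner files was taken, which gave 19 of the 41174 probes on the array and 10 of its 19694 named genes. The names were chosen with results of these arrays known, both the regional level and the mutant ratio, so those values are given here as a description and not as a test. Of the 19 probes, 12 passed a filter on dim signal, as did 12987 of all probes, and each gene kept at least 1 probe. A probe was kept if the scanner had flagged it as well above background 4 times or more among the 6 measurements of any single region and genotype, so a probe bright in only 1 region could pass through that region alone.

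The arrays compared Naglu-/- mice with Naglu+/- littermates, all female, on a C57BL/6 background and aged 2 months. Naglu encodes the lysosomal enzyme alpha-N-acetylglucosaminidase, and the mutant models Sanfilippo syndrome type B. The controls carried 1 null allele themselves, so no wild-type animal enters any comparison. Neurons were captured from medial (MEC) and lateral (LEC) entorhinal cortex in Nissl-stained sections of 12 µm, 500 neurons per region, and the RNA was amplified. Each region had 3 pairs of mutant and control, each hybridised on 2 arrays with the dyes exchanged, which gave 12 arrays and 12 RNA extracts. The labels do not say whether the MEC and LEC pairs came from the same mice.

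The entorhinal cortex relays cortical input to the hippocampus. In its layer II, neurons that make reelin project to the dentate gyrus, while clusters of neurons positive for calbindin and wolframin form a second population; the balance and depth of these cell types differ between MEC and LEC. Neurons were captured by region and not by layer or cell type, so the label of layer marker could not be checked within these arrays. A lower level can reflect fewer cells of a type or less RNA per cell, and these cannot be told apart here.

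All 6 MEC arrays were scanned on 1 day at a pixel size of 10 µm and all 6 LEC arrays on another day at 5 µm, so region and scan cannot be told apart. Pair levels correlated at 0.99 within each region and between 0.96 and 0.97 across regions. Neuronal genes were bright in both regions, with the pan-neuronal Snap25 at 10.47 in MEC and 9.95 in LEC and the excitatory marker Camk2a at 9.15 in MEC and 8.98 in LEC on the log2 scale, but Slc17a7, the vesicular glutamate transporter, was well above background in only 5 of 12 MEC and 6 of 12 LEC readings. The 2 Naglu probes check neither genotype nor labels: 1 was well above background in 0 of 24 readings, and the other in 12 of 24, with log2 ratios of mutant over control between −0.04 and 0.09. In replicate 2 of both regions the sign of the ratio follows the authors' deposited value table, which opposes the labelled dyes; the mean ratios are therefore also given with replicate 2 turned as labelled. Regional levels average mutant and control and both dyes and do not depend on this, but regional runs on mutant or control extracts alone do.

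The members split evenly by region. Of the 12 kept probes, 5 were higher in MEC and 5 higher in LEC by limma with Benjamini-Hochberg adjustment, and the other two did not pass. Across all 12987 kept probes, 24.4% passed in this comparison, 11.2% higher in MEC and 13.2% higher in LEC, and since the members were chosen on this contrast nothing is read from their count. Each gene's brightest probe had all 3 pairs of 1 region above all 3 of the other, an arrangement that 42.9% of all probes showed. With 75th-percentile scaling in place of quantile normalization, 4812 probes passed and only 11.6% of them were higher in MEC, against 3165 and 45.8%; all 12 member probes kept their direction, but Reln and Nr4a2 no longer passed. A difference of at least 1 on the log2 scale was seen in 0.524% of all probes and in 3 members, Lef1, Neurod6 and Fxyd6.

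**Figure D1:**
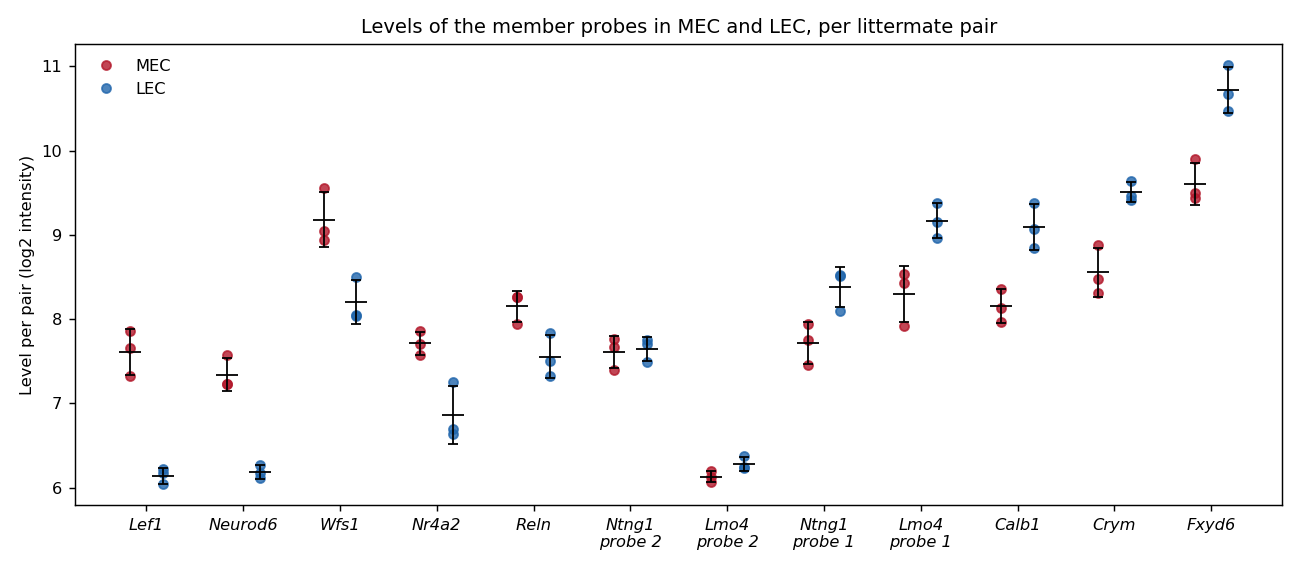
Level of each kept member probe in the 3 MEC pairs (red) and the 3 LEC pairs (blue), as log2 intensity averaged over mutant and control and over both dyes; black bars give the mean and SD of 3 pairs. Probe 1 of Lmo4 and of Ntng1 is the brighter one. Genes run from Lef1, at 7.61 in MEC against 6.14 in LEC, to Fxyd6, at 9.61 in MEC against 10.72 in LEC.

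Among the transcription factors, Lef1, a DNA-binding effector of Wnt signalling, had the largest difference of the 12 kept probes. Its levels were 7.86, 7.32 and 7.66 in the MEC pairs, against 6.22, 6.04 and 6.17 in the LEC pairs. The means were 7.61 ± 0.27 in MEC and 6.14 ± 0.09 in LEC (SD, n = 3 pairs each), a difference of 1.47 or 2.77-fold. All 12 MEC readings of this probe were well above background but only 9 of 12 LEC readings, so the LEC level lies near the dim end of the scale. Only 0.1% of all kept probes differed more between the regions. The probe lies at chr3:131213273-131213332 on the plus strand (mm8); its 2 other probes failed the filter.

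Neurod6, a basic helix-loop-helix factor of excitatory cortical neurons, ran with Lef1. It stood at 7.57, 7.23 and 7.23 in the MEC pairs, against 6.27, 6.11 and 6.18 in the LEC pairs, with no overlap. The difference of means was 1.15, or 2.23-fold, with 7.34 ± 0.20 in MEC and 6.19 ± 0.08 in LEC (SD, n = 3 pairs each). Over the 12 RNA extracts the levels of Neurod6 and Lef1 correlated at r = 0.97, and at 0.70 after each region's mean was taken out; extracts share their arrays and region, so this is a description. The scanner's processed signals, to which no offset is added, gave larger differences of 2.52 for Neurod6 and 3.00 for Lef1. The Neurod6 probe is at chr6:55607590-55607649 on the minus strand.

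The sequences just upstream of 3 genes are shown because Neurod6 and Lef1 moved together and Fxyd6 moved furthest the other way. They are the 250 bases before the most upstream start that RefSeq lists (GRCm38.p6), 5′ to 3′ on the gene's strand, with the E-box letters CANNTG in capitals; this hexamer is the kind of site that basic helix-loop-helix factors such as Neurod6 bind.
Neurod6, chr6:55681264-55681513, minus strand: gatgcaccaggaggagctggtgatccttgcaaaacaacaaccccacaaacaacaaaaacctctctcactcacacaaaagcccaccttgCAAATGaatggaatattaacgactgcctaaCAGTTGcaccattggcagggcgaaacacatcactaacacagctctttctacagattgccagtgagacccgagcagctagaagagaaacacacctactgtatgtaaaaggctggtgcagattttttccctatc
Lef1, chr3:131110047-131110296, plus strand: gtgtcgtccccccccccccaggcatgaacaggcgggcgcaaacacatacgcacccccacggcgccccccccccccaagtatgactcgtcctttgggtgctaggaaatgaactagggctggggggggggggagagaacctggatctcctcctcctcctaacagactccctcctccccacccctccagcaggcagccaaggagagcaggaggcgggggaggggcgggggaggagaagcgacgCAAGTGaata
Fxyd6, chr9:45369935-45370184, plus strand: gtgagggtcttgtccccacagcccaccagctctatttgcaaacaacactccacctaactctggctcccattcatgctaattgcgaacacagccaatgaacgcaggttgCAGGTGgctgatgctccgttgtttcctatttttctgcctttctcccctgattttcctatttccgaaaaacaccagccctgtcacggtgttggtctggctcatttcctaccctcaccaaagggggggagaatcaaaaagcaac

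Neurod6 held 2 E-boxes in this window, Lef1 held 1 and Fxyd6 held 1. These letters read the same on both strands, and 66.1% of the 27025 RefSeq promoters of the same length hold at least 1. Of the 10 members, 8 were matched to the table (not Calb1 or Crym), and 5 of the 8 held an E-box. The letters CTTTGA, the core bound by Lef1 and its relatives, were in 0 of the 8 windows and in 14.1% of all promoters, on either strand. The TATA letters TATAAA were in 1 of the 8, that of Nr4a2, and in 13% of all. The 8 windows ranged from 46% GC in Neurod6 to 82.4% in Lmo4, with 3 CpG dinucleotides in Neurod6 and 44 in both Lmo4 and Nr4a2.

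Nr4a2, an orphan nuclear receptor of the claustrum, subplate and deep entorhinal layers, was also higher in MEC. Its pair levels were 7.70, 7.86 and 7.57 in MEC, against 7.25, 6.69 and 6.64 in LEC. The means were 7.71 ± 0.14 in MEC and 6.86 ± 0.34 in LEC (SD, n = 3 pairs each). The difference was 0.85, or 1.80-fold, and the first LEC pair lay nearest to the MEC range. The probe is at chr2:56923674-56923733 on the minus strand.

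Lmo4, a LIM-only cofactor that modulates cortical patterning, ran the other way. Its bright probe (chr3:144126119-144126178, minus strand) read 7.92, 8.54 and 8.43 in the MEC pairs, against 9.38, 8.97 and 9.15 in the LEC pairs. The means of 8.30 ± 0.33 in MEC and 9.17 ± 0.21 in LEC (SD, n = 3 pairs each) differed by −0.87. A second probe, at chr3:144138171-144138230 and made to another transcript record, was dim and differed by −0.15, which did not pass. With the scanner's processed signals its difference was −0.59 and passed, against −1.01 for the bright probe.

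Of the markers of layer II populations, Wfs1 and Reln were higher in MEC and Calb1 in LEC. Wfs1 encodes wolframin, a membrane protein of the endoplasmic reticulum, and its probe is at chr5:37254434-37254493 on the minus strand. It was at 8.94, 9.05 and 9.55 in the MEC pairs and at 8.04, 8.05 and 8.50 in the LEC pairs, a difference of 0.98 or 1.97-fold. Its means were 9.18 ± 0.32 in MEC and 8.20 ± 0.26 in LEC (SD, n = 3 pairs each). The groups did not overlap by pair, but they did by extract.

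Reln encodes the secreted glycoprotein reelin, which signals through the lipoprotein receptors Vldlr and Lrp8. The probe at chr5:21396483-21396542, minus strand, read 8.26, 7.94 and 8.26 in the MEC pairs, against 7.83, 7.33 and 7.50 in the LEC pairs. The gap between the lowest MEC pair and the highest LEC pair was 0.11, the narrowest among the brightest probes of the 10 genes. The means were 8.15 ± 0.18 in MEC and 7.55 ± 0.26 in LEC (SD, n = 3 pairs each). Their difference of 0.60 (1.52-fold) lost its call without MEC replicate 1 and without MEC replicate 3. A second Reln probe was not well above background in any of the 12 LEC readings and in only 3 of the 12 MEC readings.

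Calb1 encodes calbindin, a cytosolic calcium buffer, and its probe is at chr4:15832543-15832602 on the plus strand. It stood at 7.97, 8.14 and 8.36 in the MEC pairs, against 9.06, 8.84 and 9.38 in the LEC pairs. With means of 8.16 ± 0.20 in MEC and 9.10 ± 0.27 in LEC (SD, n = 3 pairs each), the difference was −0.94, so that Calb1 and Wfs1, known as markers of 1 population in MEC layer II, ran in opposite directions between these regions. With region means removed, their levels correlated at r = 0.77 over the 12 extracts pooled, against −0.47 with region kept in. That was the highest such value among the members, and neither region was correlated alone. Extracts share their arrays and come in littermate pairs, so this is a description.

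The remaining 3 members were all higher in LEC. Crym (probe at chr7:119977605-119977664, minus strand), which encodes mu-crystallin, a cytosolic thyroid hormone-binding protein, was at 8.48, 8.88 and 8.30 in the MEC pairs, against 9.42, 9.46 and 9.64 in the LEC pairs (difference −0.95). Fxyd6 (probe at chr9:45147046-45147105, plus strand), a small regulator of the sodium pump, was at 9.43, 9.89 and 9.50 in the MEC pairs, against 11.02, 10.67 and 10.47 in the LEC pairs (difference −1.11). The SDs of 3 pairs were 0.29 in MEC and 0.12 in LEC for Crym, and 0.25 in MEC and 0.27 in LEC for Fxyd6. Neither gene's pairs overlapped between the regions, and for Crym all 6 extracts of 1 region lay apart from the 6 of the other.

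Ntng1, netrin-G1, is a lipid-anchored synaptic adhesion protein of axons, and its 2 kept probes differed between regions by unequal amounts. The probe at chr3:110271486-110271545, spotted 10 times on each array, read 7.45, 7.95 and 7.75 in the MEC pairs, against 8.52, 8.52 and 8.10 in the LEC pairs. The probe at chr3:109909348-109909407 read 7.40, 7.76 and 7.67 in the MEC pairs, against 7.76, 7.70 and 7.49 in the LEC pairs. The first had means of 7.72 ± 0.25 in MEC and 8.38 ± 0.24 in LEC (SD, n = 3 pairs each). It differed by −0.66 and the second by −0.04 with overlapping pairs. The second changed sign in 3 of its 19 alternative settings, while under 75th-percentile scaling it differed by −0.42 and passed, in the direction of the first. Both are on the minus strand and are matched to different sequence records of the gene.

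When the 12 extracts were kept apart, the 6 MEC extracts did not overlap the 6 LEC extracts for Lef1, Neurod6, Nr4a2, Calb1 and Crym, an arrangement seen in 11.4% of all probes. For Wfs1, Reln, Lmo4, Fxyd6 and Ntng1 the regions overlapped. Calculated from mutant extracts only, 4 of the 10 genes passed the regional test by limma, Nr4a2, Neurod6, Crym and Lef1, against 3.48% of all probes. From control extracts only, 8 of the 10 passed, all but Reln and Nr4a2, against 4.74% of all probes. These counts rest on the direction of replicate 2: turned as labelled, 6 passed from mutant extracts, against 14.7% of all probes, and 7 from control extracts, against 7.15%. The runs have fewer readings per value, and all 10 directions were unchanged in each of them. The members were chosen on the regional level and these runs reuse parts of the same values, so nothing is read from the counts or directions.

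The genes whose levels ran most like 3 of these markers were found by Pearson correlation over the 12 extracts, as a description. For Calb1 the nearest genes included Tsc22d1, at r = 0.94, Bbip1, Map4k5 and Lrrn2. For Wfs1 the nearest was Cog6, at r = 0.96, followed by Pnn, Cyc1, Armcx3 and Lig4, and for Reln it was Psma1, at r = 0.92, followed by Zfand5, Rab18, Itm2b and Ei24. The 4 genes named for Calb1 had lower mean levels in MEC than in LEC, and the 10 others had higher ones. Region means were not removed before the correlation, so this shared direction follows largely from how the genes were picked. Nothing is read from it.

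No mutant contrast called any probe. By limma with Benjamini-Hochberg adjustment, 0 of 12987 probes (0%) passed for mutant over control, whether fitted in MEC alone, in LEC alone, over both together or as the difference between the regions, and the smallest adjusted p of any member was 1.00 to 2 decimals. At an unadjusted limma p under 0.05 there were 136 probes in MEC (1.05%), 199 in LEC (1.53%), 274 averaged (2.11%) and 71 for the difference (0.547%). These counts rest on the direction of replicate 2. Turned as labelled, they were 1516, 1265, 1563 and 1202 of 13273 probes, in the same order, and 0 passed after adjustment. The member ratios varied widely between pairs. Of the 72 ratios of the 12 probes in 6 pairs, 34.7% exceeded 0.5 in size on the log2 scale, against 3% of those of all kept probes. Among probes of mean level 7 or more the shares were 42.6% and 9.17%. The members were chosen with the ratios in view, so these shares are a description.

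**Figure D2:**
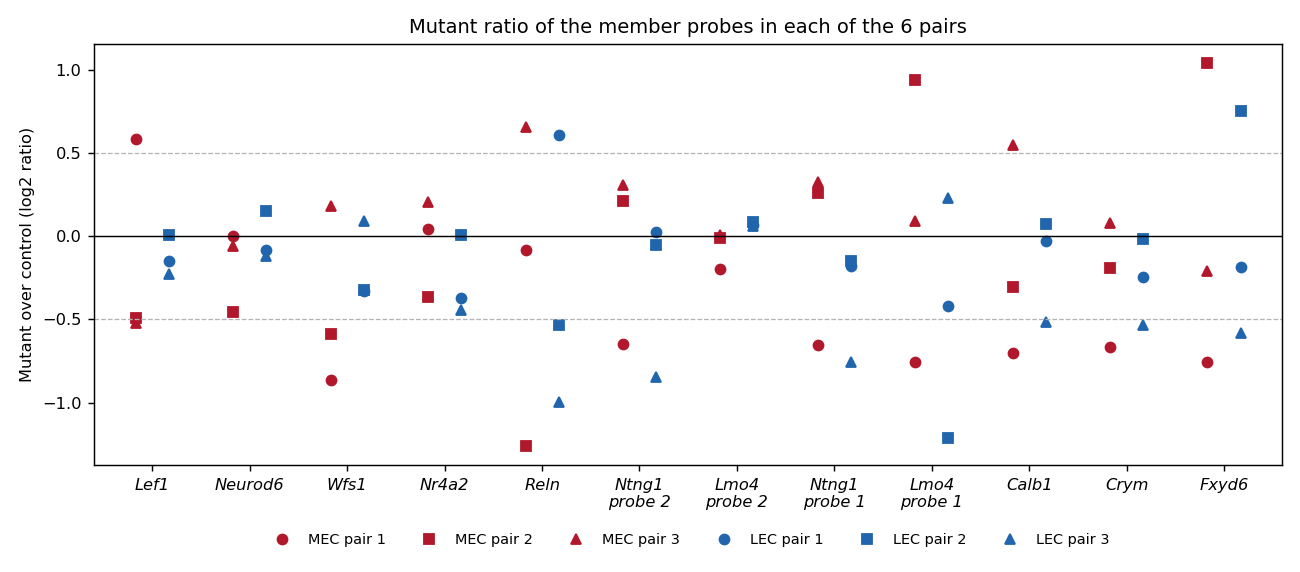
Mutant over control, as log2 ratio, of each kept member probe in the 3 MEC pairs (red) and 3 LEC pairs (blue); symbols give the pair number and dashed lines mark ±0.5. Reln spans −1.26 to 0.66 and Lmo4 probe 1 spans −1.22 to 0.94, with pairs on both sides of 0.

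The large ratios were seen on both arrays of a pair. All 25 that exceeded 0.5 in size had the same sign on both dye-swapped arrays, as did 99.1% of such ratios over all probes. Most lay in a few pairs. In MEC pair 1, 7 of 12 member probes were below −0.5, against 0.439% of all probes. In LEC pair 3, 6 of 12 were below −0.5, against 1.45% of all probes. The genes below −0.5 in MEC pair 1 were Calb1, Wfs1, Lmo4, Crym, Fxyd6 and Ntng1, the last with both probes, while Lef1 was above 0.5 there.

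**Figure D3:**
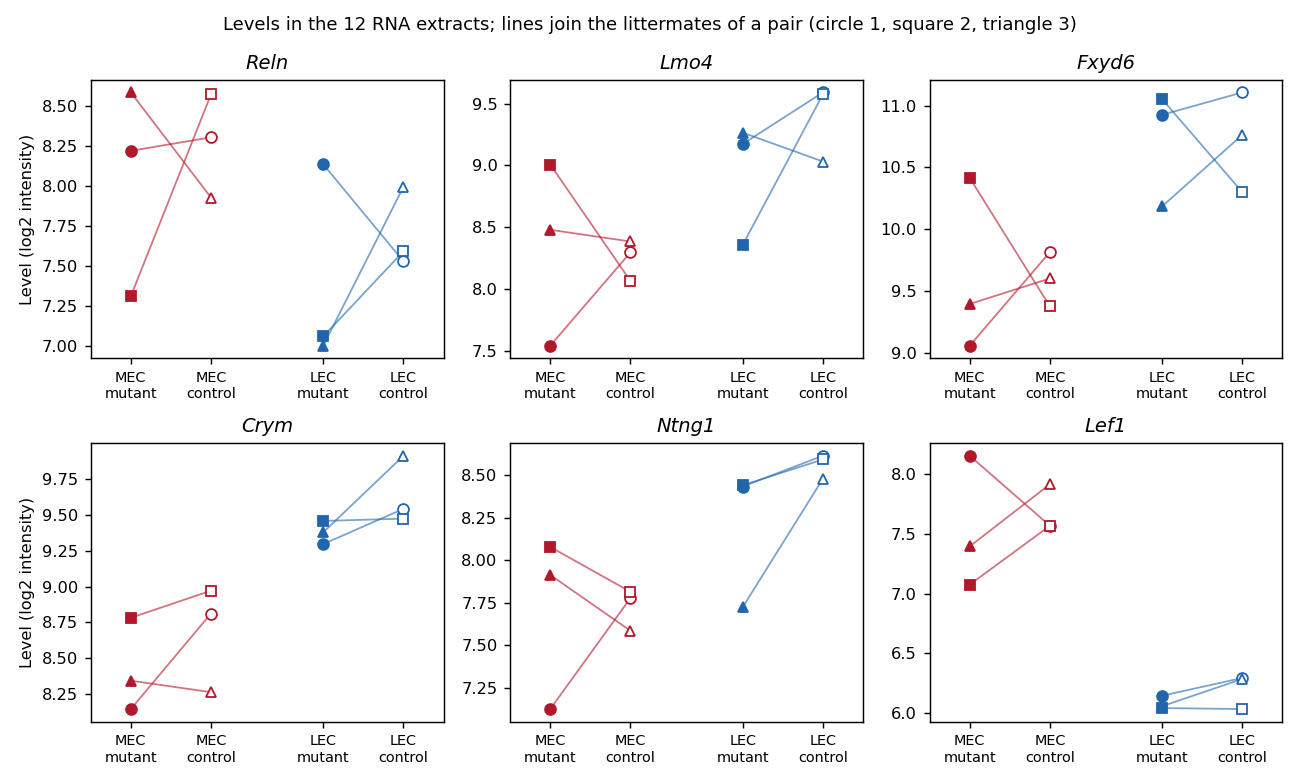
Log2 level of 6 members in each RNA extract, with filled symbols for mutant and open symbols for control, red for MEC and blue for LEC; lines join littermates of 1 pair. Mutant and control values overlap except for Crym and Ntng1 in LEC. With replicate 2 turned as labelled these overlap too, while those of Fxyd6 in MEC do not.

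Reln had ratios of −0.08, −1.26 and 0.66 in the MEC pairs and 0.61, −0.53 and −0.99 in the LEC pairs. Its mutant extracts in MEC read 8.22, 7.31 and 8.59, against 8.31, 8.57 and 7.93 in control. Both regions held pairs on either side of 0, and 0.462% of all probes had a larger SD over the 6 pairs, or 0.354% with replicate 2 turned as labelled. With replicate 2 turned as labelled, its mean ratio was 0.61 in MEC and 0.05 in LEC, against −0.23 and −0.31.

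The bright Lmo4 probe had ratios of −0.75, 0.94 and 0.09 in the MEC pairs and −0.42, −1.22 and 0.23 in the LEC pairs, a range of 4.45-fold. The dim probe stayed between −0.20 and 0.09, with means of −0.06 in MEC and 0.01 in LEC once replicate 2 was turned. In replicate 2 the bright probe was above 0 in MEC and below 0 in LEC, and turning that replicate brought its means to −0.53 in MEC and 0.34 in LEC, against 0.09 and −0.47.

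Fxyd6 had ratios of −0.76, 1.04 and −0.21 in the MEC pairs and −0.18, 0.75 and −0.58 in the LEC pairs. The replicate 2 pairs of both regions stood above 0 and the other 4 pairs below. Those 2 pairs are the ones whose direction is unsettled: with replicate 2 turned as labelled, all 6 ratios were below 0, with means of −0.67 in MEC and −0.50 in LEC, and the fit still called 0 probes.

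Ntng1 had like mutant ratios from both probes. The probe at chr3:110271486-110271545 gave −0.65, 0.26 and 0.33 in the MEC pairs and −0.18, −0.15 and −0.75 in the LEC pairs. The other gave −0.65, 0.21 and 0.31 in MEC and 0.03, −0.05 and −0.85 in LEC. In LEC the mutant extracts of the first probe read 8.43, 8.44 and 7.72, all below the control extracts at 8.61, 8.59 and 8.48. With replicate 2 turned as labelled these groups overlapped, since the highest mutant extract was then 8.59 and the lowest control extract 8.44.

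Crym was the other probe without overlap in LEC, with 9.30, 9.46 and 9.38 in mutant against 9.54, 9.47 and 9.91 in control. Such an arrangement was seen in 6.73% of all probes in LEC and in 3.62% in MEC, where no member showed it. With replicate 2 turned as labelled it was seen in 10.9% of all probes in LEC, where no member then showed it, and in 15.3% in MEC, where Fxyd6 did. The Crym ratio read −0.66, −0.19 and 0.08 in the MEC pairs and −0.24, −0.02 and −0.53 in the LEC pairs, below 0 in 5 of 6 pairs, or in 3 of 6 with replicate 2 turned as labelled. The highest mutant and the lowest control extract in LEC, both of pair 2, were 9.46 and 9.47, so the groups barely part, and turning replicate 2 exchanges these values and makes them overlap.

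Calb1 had ratios of −0.70, −0.30 and 0.55 in MEC and −0.03, 0.07 and −0.52 in LEC. Wfs1 had −0.87, −0.59 and 0.18 in MEC and −0.33, −0.32 and 0.09 in LEC. Both were below 0 in 4 of 6 pairs and had their lowest ratio in MEC pair 1; with replicate 2 turned, Wfs1 was below 0 in 2 of 6. Turning replicate 2 brought the Wfs1 means to −0.03 in MEC and 0.03 in LEC, against −0.42 and −0.18.

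Nr4a2 and Neurod6 varied least when each of the 10 genes was taken by its brightest probe. Nr4a2 had ratios of 0.05, −0.37 and 0.21 in MEC and −0.37, 0.01 and −0.45 in LEC, and Neurod6 had 0.00, −0.45 and −0.06 in MEC and −0.08, 0.15 and −0.12 in LEC. None exceeded 0.5 in size. Lef1, which ran with Neurod6 by region, had 0.59, −0.49 and −0.52 in MEC but only −0.15, 0.01 and −0.23 in LEC, where its signal was near the dim end of the scale. Turning replicate 2 gave means of 0.21 in MEC and −0.28 in LEC for Nr4a2, 0.13 and −0.12 for Neurod6, and 0.19 and −0.13 for Lef1. The same step gave 0.05 in MEC and −0.21 in LEC for Calb1, −0.13 and −0.25 for Crym, −0.20 and −0.26 for the brighter Ntng1 probe, and −0.18 and −0.26 for the other.

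Markers of other cells also moved in single pairs. In LEC pair 2 the mean log2 ratio was 0.57 over the 8 kept astrocyte markers, 0.42 over the 9 kept markers of inhibitory neurons and 0.85 over the 5 kept markers of blood, choroid plexus and meninges. That pair's direction is unsettled, and turned as labelled these means are −0.57, −0.42 and −0.85. In LEC pair 3 the last list was at −0.72 and the astrocyte list at −0.27. In MEC pair 1, where most members were low in mutant, these 3 lists were at 0.10, 0.08 and 0.07. The part of these cells in the member ratios was not tested.

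The lists of related genes give the regional setting of the members. In every list, cell type markers included, a gene is given by its brightest kept probe, and other probes of the same gene are not shown. Of the reelin pathway, 7 of 11 genes were kept. Dab1, an adaptor that binds the reelin receptors, was higher in MEC, at 6.74 against 6.41 in LEC (difference 0.33, SE 0.06, limma adjusted p = 0.0069). Pafah1b1, the dynein regulator Lis1, was higher in MEC by 0.38, a sign that turned to −0.10 under 75th-percentile scaling. Vldlr, a reelin receptor, was lower in MEC, at 7.49 against 7.87 in LEC (difference −0.38, SE 0.08, limma adjusted p = 0.0096). The other receptor, Lrp8, was too dim to test, and the list's median of 0.12 compares with −0.02 for all kept probes.

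**Figure D4:**
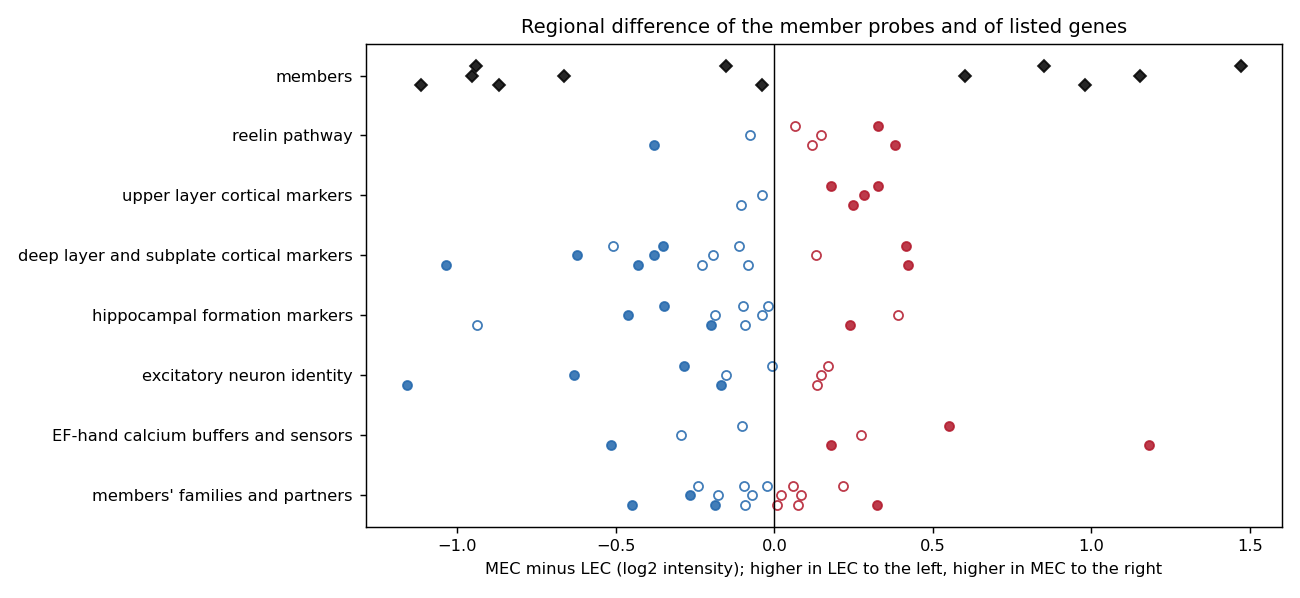
MEC minus LEC on the log2 scale for the kept member probes (black diamonds, no test shown) and for kept genes of 7 lists, filled where limma passed. Members reach from −1.11 to 1.47; among listed genes Vsnl1 lies at 1.18 and Nrgn at −1.16.

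Other layer markers are given by list. Of 6 kept upper layer markers, 4 passed and all were higher in MEC: Kitl by 0.33, Lhx2 by 0.28, Cux1 by 0.25 and Cux2 by 0.18, against 11.2% of all probes. Cux2 was well above background in 9 of 12 MEC but only 2 of 12 LEC readings, and Kitl in 10 of 12 MEC and 5 of 12 LEC readings. Under 75th-percentile scaling the counts were 2 higher in MEC and 2 in LEC, with Lhx2 turned to −0.20. Of all 12987 probes, 558 were higher in MEC and 4254 in LEC under that scaling, the background for the scaled counts of each list. Of 13 kept deep layer and subplate markers, 5 were higher in LEC and 2 in MEC, against 13.2% and 11.2% of all probes. The counts were the same under 75th-percentile scaling, but Ctgf and Nxph4 then did not pass, while Tle4 (−0.92) and Ntsr1 (0.19) did. Those higher in LEC included Rprm, a cell-cycle inhibitor used as a subplate marker (−1.04), Ctgf (−0.62), the complexin Cplx3 (−0.43) and Ldb2 (−0.38). Ctgf and Ldb2 were each well above background in only 5 of 12 MEC readings, against 10 and 11 of 12 in LEC. Nxph4 and Crim1, also on that list, were higher in MEC by 0.42 and 0.41. The list medians were 0.21 for the upper and −0.23 for the deep layer markers. Without LEC replicate 2 the counts were 2 and 0 for the upper layer, and 1 higher in MEC and 4 higher in LEC for the deep layers.

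Calcium-binding relatives of Calb1 moved in both directions. Of 7 kept EF-hand genes, 3 were higher in MEC, against 11.2% of all probes. They were the neuronal calcium sensor Vsnl1, at 7.94 against 6.76 in LEC (difference 1.18, SE 0.10, limma adjusted p = 0.0006), parvalbumin (Pvalb) by 0.55 and hippocalcin (Hpca) by 0.18. Ncald, neurocalcin, differed by −0.51, lower in MEC like Calb1. Vsnl1 was well above background in all 24 readings and Hpca in only 1 of 12 LEC readings.

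Of 16 kept genes from the families and partners of the members, 1 was higher in MEC and 3 were higher in LEC. That share is close to the 24.4% of all probes that passed, so nothing is read from it. Those higher in LEC included the thyroid hormone receptor Thrb (−0.27) and the LIM-only gene Lmo1 (−0.19). Nr4a1, a relative of Nr4a2, was higher in MEC by 0.32, but turned to −0.17 under 75th-percentile scaling. The Wnt effector Ctnnb1 differed by −0.18 and the Lef1 relative Tcf7l2 by −0.09, and neither passed. Ldb1, which binds LIM-only proteins, differed by 0.09, and Lrrc4c, the ligand of netrin-G1, by −0.10; neither passed. Under 75th-percentile scaling the list had 1 gene higher in MEC and 8 in LEC, while 558 of all 12987 probes were higher in MEC and 4254 in LEC.

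Among other neuronal genes, none of 9 kept excitatory identity genes was higher in MEC and 4 were higher in LEC, by limma: Nrgn, a postsynaptic calmodulin-binding protein (−1.16), Id2 (−0.63), Bhlhe22 (−0.29) and Nrn1 (−0.17). Bhlhe22 was well above background in only 4 of 12 MEC readings, against 12 of 12 in LEC. Under 75th-percentile scaling 1 gene of this list was higher in MEC and 7 in LEC. For this list and the next, the shares of all probes are 11.2% higher in MEC and 13.2% higher in LEC without that scaling. With it, 558 of 12987 probes were higher in MEC and 4254 in LEC. Of 11 kept hippocampal markers, Dkk3 was higher in MEC by 0.24, while Nov (−0.46), Grik4 (−0.35) and Nts (−0.20) were higher in LEC; 75th-percentile scaling made it 1 and 6. Grik4 and Nts were each well above background in 6 of 12 MEC readings, against 12 and 11 of 12 in LEC. Dkk3 was so in 10 of 12 MEC and 6 of 12 LEC readings. Without LEC replicate 2, these listed genes no longer passed: Cux2, Lhx2, Ctgf, Nxph4, Nts, Nrn1, Hpca, Lmo1, Nr4a1, Sst and Cx3cr1.

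Some markers of oligodendrocytes and interneurons also differed by region, while few of astrocytes or microglia did. Of all kept probes, 24.4% passed this comparison, 11.2% higher in MEC and 13.2% higher in LEC. With 75th-percentile scaling instead, 558 of 12987 were higher in MEC and 4254 in LEC. Of 7 kept oligodendrocyte markers, 4 were higher in MEC, among them Mobp, at 6.77 against 6.10 in LEC (difference 0.67), and Mag by 0.41, while Mbp differed by −0.97; 75th-percentile scaling left 3 and 1. The mean level of the list was 7.04 to 7.17 over the MEC pairs and 6.70 to 6.86 over the LEC pairs. Of 9 kept inhibitory markers, Gad1, Slc32a1 and Pvalb were higher in MEC by 0.31, 0.42 and 0.55, and Sst differed by −0.88; under 75th-percentile scaling 1 was higher in MEC and 1 in LEC. Of the astrocyte markers Glul alone passed, higher in MEC by 0.93 (not with 75th-percentile scaling), and the defining markers Gfap and Aqp4 were too dim to keep. Cx3cr1 was the 1 of 9 kept microglial markers to pass, with a difference of −0.19. It was well above background in only 2 of 12 MEC readings, against 11 of 12 in LEC. None of the vessel or the blood, choroid plexus and meninges markers passed. The part of all these cells in the members' regional differences was not tested.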

How the data were processed

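The members and lists were chosen with earlier results of these data known. The deposited scanner files hold raw intensity and local background per spot and dye, per the file headers from Agilent Feature Extraction 9.5.1.1, while the submitters' processing notes name version 8.5.1.1; the authors' deposited value table holds log2 ratios. The files' log10 ratios, deposited as the scanner software computed them from processed signals, were used only for the match of arrays to that table. Each array was assigned to its pair, and the dye of the mutant RNA read, from its match to the value table, since 5 LEC files matched a different LEC sample than the one they were deposited for. In R 4.3.3 with limma 3.58.1, signals were background-corrected (normexp, offset 50) and loess-normalized within arrays, and mean intensity was quantile-normalized. The offset compresses differences of dim probes. Pair means (n = 3 per region) were fitted with lmFit and eBayes over 12987 probes and called at a Benjamini-Hochberg 0.05. Fits were tested on simulated data. Named are all members, their nearest genes and, per list, passing genes (at most 4); some are not reported here. The number of arrays limits the precision. The labels call the pairs biological replicates. Levels of same-numbered MEC and LEC pairs were not correlated (r −0.06 to 0.01), so numbers were not used as a block. Their mutant ratios correlated at r −0.18, −0.004 and −0.35, and those of differently numbered pairs at up to 0.43. Whether the regions share mice, under the same or other numbers, is not known, and the fits treat MEC and LEC pairs as independent. Probe coordinates are mm8, per the files; exon and UTR annotation was not used here.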

Additional observations from a re-analysis of the deposited data

Results flagged for a closer look

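Among the 12 kept member probes, the dim Lmo4 probe at chr3:144138171-144138230 had 1 pair far from the other 5 in the value table's direction. Its mutant ratio was −0.20 in MEC pair 1, while the others lay between −0.01 and 0.09. Such a gap turns up by chance in about 1 group in 20, and 12 probes were examined. With replicate 2 turned as labelled the others lay between −0.09 and 0.07, and the gap is then too small to be flagged.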

How the results depend on the processing

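The regional comparison called 3165 probes. It called 4812 with 75th-percentile scaling, 452 from mutant extracts only, 615 from control extracts only and 892 without replicate 2 of both regions; single replicates left out gave 1960 to 2895. The counts from 1 genotype rest on the value table's direction for replicate 2: in runs chosen after seeing the data with that replicate turned as labelled they were 1910 for mutant and 929 for control extracts. The runs on fewer extracts or replicates hold fewer values, and the cause of the change under scaling was not tested. With the replicate number as a block, which is not known to pair mice, 2765 probes passed and 0 in each mutant contrast. In the mutant contrasts, leaving out single replicates gave 0 to 1 probes in MEC and 0 to 1 averaged over the regions; the 1 probe, Lyz2, passed without LEC replicate 2. All other alternatives of the mutant contrasts gave 0. The brightest probe of each of the 10 genes kept its regional direction in all 20 alternatives. Reln was not called without MEC replicates 1 or 3, and Ntng1 without MEC replicate 1; without replicate 2 of both regions Wfs1, Nr4a2 and Ntng1 were not called. Slide or scan day as a block was not run, because no scan day holds both regions. Dim signal limits Lef1 and Neurod6 in LEC.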
